A study of Mus musculus with 2 samples.

Results

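Yrdc and the genes that act with its product in making N6-threonylcarbamoyladenosine (t6A) were followed through single-cell libraries of cultured mouse spermatogonia. The 6 genes were Yrdc, Osgep, Trp53rk, Tprkb, Lage3 and Osgepl1, of 26893 named genes in all, and each was found by its symbol in both libraries except Trp53rk. Trp53rk is listed as Trp53rkb, its current mouse name in RefSeq. Yrdc was chosen because it was already known to be low under Chd4 siRNA in these libraries, so that value is a description and carries no test.

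Undifferentiated spermatogonia, the population that includes the stem cells of the male germline, came from adult C57BL/6 testes by magnetic selection for THY1 and grew with GDNF and bFGF on a feeder layer of SNL76/7 embryonic fibroblasts whose division was blocked with mitomycin. The cells were lifted off the feeders and given 75 pmol of either Chd4 siRNA or a control siRNA with no target, with 2 µL Lipofectamine, for 24 h. CHD4 is the remodelling ATPase within NuRD, a complex that also removes acetyl groups from histones. Both groups are of the same strain and received the transfection reagent. Cells of 3 biological replicates were combined into 1 library per group, so replicates cannot be told apart and no difference below has a replicate check. The 95% intervals below cover counting error alone, and higher and lower compare 2 libraries.

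The universal tRNA modification t6A sits on the adenosine next to the anticodon of tRNAs that read codons beginning with A, and it helps those tRNAs read start and threonine codons accurately. YRDC makes the activated intermediate, threonylcarbamoyl-AMP, from threonine, bicarbonate and ATP. In the cytosol the KEOPS complex then moves the threonylcarbamoyl group onto the tRNA, and in mitochondria OSGEPL1 does so alone. Both steps draw on the same intermediate from YRDC.

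The Chd4 siRNA library held 860 complete cells, of which 858 with at least 1000 unique molecular identifiers (UMIs, each counting 1 captured mRNA molecule) were kept, and the control library held 816. Median depth was 16149.5 and 15625.5 UMIs per cell. Germ cells had more UMIs of Dazl and Ddx4, germline RNA-binding proteins, than of Col1a1 and Fn1, fibroblast matrix genes, and feeder cells the reverse. This gave 760 and 728 germ cells (88.6% and 89.2%) with 12251236 and 11605456 UMIs, 89 and 79 feeder cells with 3607230 and 3174545 UMIs, and 9 tied cells in each library that were left out. The 7 other germ cell markers measured summed to 1609 and 1510 CPM (UMIs per 1000000 UMIs in named genes of that class) in germ cells but to 50.2 and 62.4 CPM in feeder cells, and the 8 other feeder markers to 62.4 and 59.7 CPM in germ cells and 4529 and 3841 CPM in feeder cells. Of the 4 Leydig cell markers measured only Star had UMIs. The 4 macrophage markers measured summed to 16.9 and 15.6 CPM in germ cells and 8.59 and 2.52 CPM in feeder cells, with Adgre1 at 0 throughout, and the 5 endothelial markers to 11.8 and 12.1 CPM in germ cells and 7.21 and 3.15 CPM in feeder cells. Sertoli cell markers summed to 16.8 and 17.6 CPM in germ cells and 210.4 and 227.7 CPM in feeder cells. Of the feeder sums the highest single marker held 207.1 and 221.4 CPM. Cldn11 was at 0 in feeder cells under Chd4 siRNA and Wt1 under control siRNA. The 799 and 817 barcodes listed, which for the Chd4 siRNA library are fewer than its cells, shared 1 barcode; cells with no listed barcode could not be compared. The siRNA target, Chd4, had 252.9 CPM in germ cells under Chd4 siRNA and 535.8 CPM under control siRNA, a log2 ratio of −1.08 (−1.15 to −1.02), and in feeder cells 52.9 and 154.7 CPM, a log2 ratio of −1.55 (−1.80 to −1.30).

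The first question was how low Yrdc was and in which cells. In germ cells Yrdc had 299 UMIs under Chd4 siRNA and 771 under control siRNA. These counts correspond to 24.4 CPM (21.7 to 27.3) under Chd4 siRNA and 66.4 CPM (61.8 to 71.3) under control siRNA, intervals that lie far apart. Yrdc RNA under Chd4 siRNA was 0.367 (0.320 to 0.420) of its level under control siRNA, or −1.44 (−1.64 to −1.25) as a log2 ratio. It was the lowest log2 ratio of the 8257 genes with at least 200 germ cell UMIs over both libraries, below that of Chd4 itself. The median of those genes was 0.05, and 97.7% of them lay within 0.5 of 0.

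Feeder cells did not show this difference. Their Yrdc count was 100 UMIs under Chd4 siRNA and 96 under control siRNA, which is 27.7 CPM (22.6 to 33.7) under Chd4 siRNA and 30.2 CPM (24.5 to 36.9) under control siRNA. The feeder log2 ratio was −0.13 (−0.54 to 0.29), an interval that includes 0 and reaches a ratio as low as 0.686. The germ cell log2 ratio minus the feeder log2 ratio was −1.32 (−1.77 to −0.87). It contains the germ cell value for which Yrdc was chosen and is likewise a description. Chd4 itself was lower in feeder cells by at least as large a fold as in germ cells.

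Set in order, the 4 Yrdc levels were 24.4 CPM in germ cells under Chd4 siRNA, 27.7 CPM in feeder cells under Chd4 siRNA, 30.2 CPM in feeder cells under control siRNA and 66.4 CPM in germ cells under control siRNA. The first 3 have overlapping intervals and only the last stands clear of its neighbour. Under Chd4 siRNA germ cells therefore had no more Yrdc than feeder cells, with a log2 ratio of germ over feeder cells of −0.18 (−0.52 to 0.16), whereas under control siRNA that log2 ratio was 1.14 (0.83 to 1.46).

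**Figure D1:**
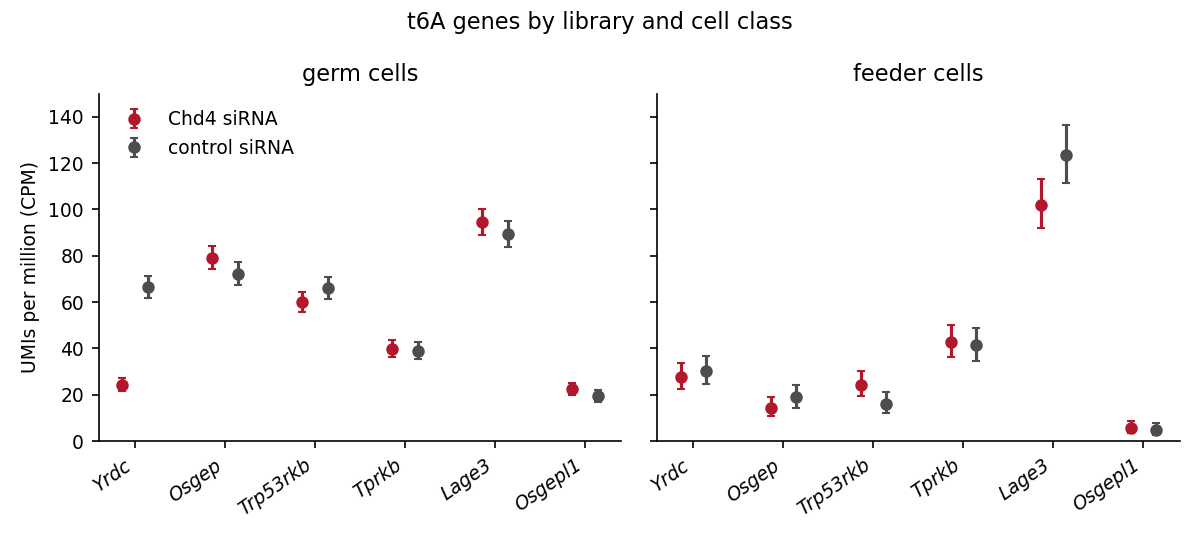
Level of each t6A gene in CPM, in germ cells (left) and feeder cells (right). Points are the Chd4 siRNA library (red) and the control siRNA library (grey), with exact Poisson 95% intervals. In germ cells Yrdc stands at 24.4 CPM against 66.4 CPM while the intervals of the other 5 genes overlap between the libraries.

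The second question was whether the rest of the t6A pathway was low as well. Among the 6 genes, all of which passed the minimum of 200 UMIs in germ cells, 1 was at least 1.5-fold lower (Yrdc, which the choice of genes fixed) and 0 were at least 1.5-fold higher, against 0.969% and 0.521% of all genes tested. The log2 ratios of the other 5 ran between −0.14 and 0.21 with a median of 0.08, beside 0.05 for all genes. All 5 of their intervals include 0.

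Osgep, the subunit that catalyses the transfer to tRNA, had 968 germ cell UMIs under Chd4 siRNA and 838 under control siRNA, or 79.0 and 72.2 CPM. Its log2 ratio was 0.13 (−0.00 to 0.27), slightly above 0 at the edge of counting error. Trp53rk encodes the kinase-like ATPase of the complex, which binds next to OSGEP. Trp53rkb had 733 and 765 UMIs, or 59.8 CPM under Chd4 siRNA and 65.9 CPM under control siRNA. Its log2 ratio was −0.14 (−0.29 to 0.01).

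The mouse genome holds a near copy, Trp53rka, whose coding sequence matches that of Trp53rkb at 98.5% of 735 bases. Reads from the coding sequence of either gene could therefore be assigned to the other or discarded. Identity outside the coding sequence was not measured. Trp53rka had 408 UMIs under Chd4 siRNA and 334 under control siRNA in germ cells, a log2 ratio of 0.21 (−0.00 to 0.42), which is on the other side of 0 from that of Trp53rkb. The sum of both copies was 1141 UMIs under Chd4 siRNA and 1099 under control siRNA, a log2 ratio of −0.02 (−0.14 to 0.10).

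Tprkb, the subunit that binds TRP53RK and helps to hold the tRNA, had 488 UMIs under Chd4 siRNA and 451 under control siRNA, or 39.8 and 38.9 CPM. Its log2 ratio was 0.04 (−0.15 to 0.22). Lage3, the small subunit to which OSGEP binds, had 1158 UMIs under Chd4 siRNA and 1036 under control siRNA, or 94.5 and 89.3 CPM, with a log2 ratio of 0.08 (−0.04 to 0.20). Both genes were thus level between the libraries within counting error. Gon7, the remaining small subunit, is listed under an older name, AK010878, and was matched by its gene identifier. It had 411 UMIs under Chd4 siRNA and 385 under control siRNA and a log2 ratio of 0.02 (−0.19 to 0.22).

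Osgepl1, the mitochondrial enzyme, had 274 UMIs under Chd4 siRNA and 224 under control siRNA in germ cells, or 22.4 and 19.3 CPM. Its log2 ratio was 0.21 (−0.05 to 0.47), and the interval leaves room for a difference of up to 1.39-fold. The enzymes that work on finished t6A were also close to level. Cdkal1, which adds a methylthio group to t6A, had a germ cell log2 ratio of −0.06 (−0.32 to 0.20), and Trmo, which methylates t6A, had 0.10 (−0.06 to 0.26).

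In feeder cells 5 of the 6 genes passed the minimum of 100 UMIs; Osgepl1, with 20 UMIs under Chd4 siRNA and 15 under control siRNA, did not. Of the 5, 0 were at least 1.5-fold lower and 1 (Trp53rkb) was at least 1.5-fold higher, against 4.28% and 2.23% of 6494 genes. Trp53rkb had 88 feeder UMIs under Chd4 siRNA and 51 under control siRNA, a log2 ratio of 0.60 (0.09 to 1.13). A single feeder cell of the Chd4 siRNA library carried 29 of those 88 UMIs, while the next carried 7. With the highest cell of each library left out, a step added after the values were seen, the sums were 59 and 48 UMIs and the log2 ratio was 0.09 (−0.48 to 0.67). Lage3 had 368 feeder UMIs under Chd4 siRNA and 392 under control siRNA, or 102.0 and 123.5 CPM. Its log2 ratio of −0.28 (−0.48 to −0.07) is beyond counting error and was −0.29 without the highest cells. Osgep had 52 and 60 feeder UMIs and a log2 ratio of −0.39 (−0.96 to 0.17), and Tprkb 154 and 131 UMIs and 0.05 (−0.30 to 0.40).

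**Figure D2:**
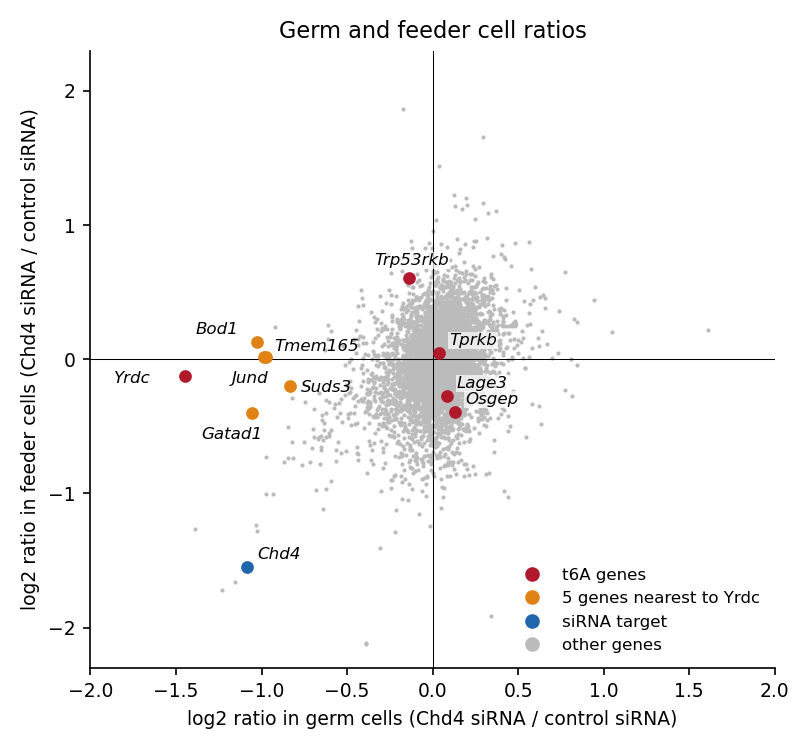
Log2 ratio, Chd4 siRNA over control siRNA, in germ cells (horizontal) and feeder cells (vertical) for the 5613 genes with at least 200 germ cell and 100 feeder cell UMIs; each point is a gene. Yrdc lies far left near the horizontal axis, Osgep, Tprkb and Lage3 lie in the central cloud, Trp53rkb at its upper edge at 0.60 in feeder cells (Osgepl1 is below the feeder minimum and not drawn), and Chd4 lies low on both axes.

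The wider set of tRNA modification enzymes was compared in the same way. Of 69 such genes other than the t6A genes, 66 were measured and 54 passed 200 UMIs in germ cells. None of the 54 was 1.5-fold lower and 0 were 1.5-fold higher, beside the shares of all genes given above, and their median log2 ratio was 0.03. The lowest was Trmt10a, which methylates guanosine in tRNA, with 995 UMIs under Chd4 siRNA and 1209 under control siRNA and a log2 ratio of −0.36 (−0.48 to −0.24). Nsun3, which acts on mitochondrial tRNA, and Trmt10b, a relative of Trmt10a, followed with −0.34 (−0.71 to 0.02) and −0.32 (−0.56 to −0.08). At the other end stood Pus3, a pseudouridine synthase, with 0.37 (0.15 to 0.59), Elp6, a subunit of the Elongator complex, with 0.34 (0.07 to 0.62), and Mto1, a mitochondrial uridine-modifying enzyme, with 0.29 (0.06 to 0.52).

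Gene groups that lie next to t6A in translation were also followed. The 19 cytosolic aminoacyl-tRNA synthetases measured, which charge tRNAs with amino acids, had a median germ cell log2 ratio of 0.14, and 0 passed 1.5-fold in either direction. Their range ran from Wars with −0.28 (−0.64 to 0.08) and Aars with −0.19 (−0.31 to −0.07) to Qars with 0.26 (0.14 to 0.38) and Mars with 0.26 (0.13 to 0.39). Of 10 measured genes of the amino acid starvation response, 5 passed 200 UMIs, with a median of 0.25 and 0 past 1.5-fold. Asns, asparagine synthetase, had 495 UMIs under Chd4 siRNA and 363 under control siRNA and a log2 ratio of 0.37 (0.17 to 0.57). Ddit3 and Atf4, transcription factors of that response, had 0.28 (0.16 to 0.40) and 0.25 (0.15 to 0.35). Shmt2, a serine and glycine enzyme, had 0.09 (−0.06 to 0.24), and Sesn2, a leucine sensor, −0.00 (−0.30 to 0.30). In feeder cells Ddit3 had a log2 ratio of −0.24 (−0.44 to −0.04) and Atf4 0.55 (0.36 to 0.73), so the 2 factors differed in direction there.

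The third question was whether the low Yrdc was shared by all germ cells or came from some of them. Each cell was thinned to 9000 UMIs, which left 697 and 666 germ cells. Of these, 18.5% (15.7 to 21.6) had a Yrdc UMI under Chd4 siRNA and 44.4% (40.6 to 48.3) under control siRNA, a difference of −25.9 points (−30.6 to −21.1). At full depth 29.2% of germ cells had a Yrdc UMI under Chd4 siRNA and 61.1% under control siRNA. Cells with 2 or more Yrdc UMIs were also fewer: 15 cells had 2 and 4 had 3 under Chd4 siRNA, against 79 and 14 under control siRNA. The variance of Yrdc UMIs per cell over their mean was 1.14 under Chd4 siRNA and 1.04 under control siRNA, where pure counting gives 1. It was also higher under Chd4 siRNA at 5000 UMIs (1.14 against 1.05) and at 12000 UMIs (1.15 against 1.05). For Osgep it was 1.13 and 1.09 at 9000 UMIs. Whether Yrdc varied between cells beyond counting was not tested. Osgep, for comparison, was found in 47.3% and 44.9% of the thinned germ cells.

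In thinned feeder cells 21.4% (13.2 to 31.7) had a Yrdc UMI under Chd4 siRNA and 32.0% (21.7 to 43.8) under control siRNA, a difference of −10.6 points whose interval (−24.0 to 3.13) includes 0. The direction changed with depth: the feeder difference was 7.46 points (−2.09 to 17.0) at 5000 UMIs and 2.25 points (−12.3 to 16.4) at 12000 UMIs. Without thinning it was −10.4 points (−23.9 to 3.92). No class in these cultures is known to lack Yrdc, so no background share from free RNA could be set for it. As a guide, Mael, a germline gene, was found in 17.9% and 13.3% of thinned feeder cells under Chd4 siRNA and control siRNA, against 96.7% and 95.2% of thinned germ cells. It averaged 4.64 and 4.28 UMIs per thinned germ cell and 0.190 and 0.133 per thinned feeder cell, whereas Yrdc averaged 0.218 and 0.614 per thinned germ cell.

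**Figure D3:**
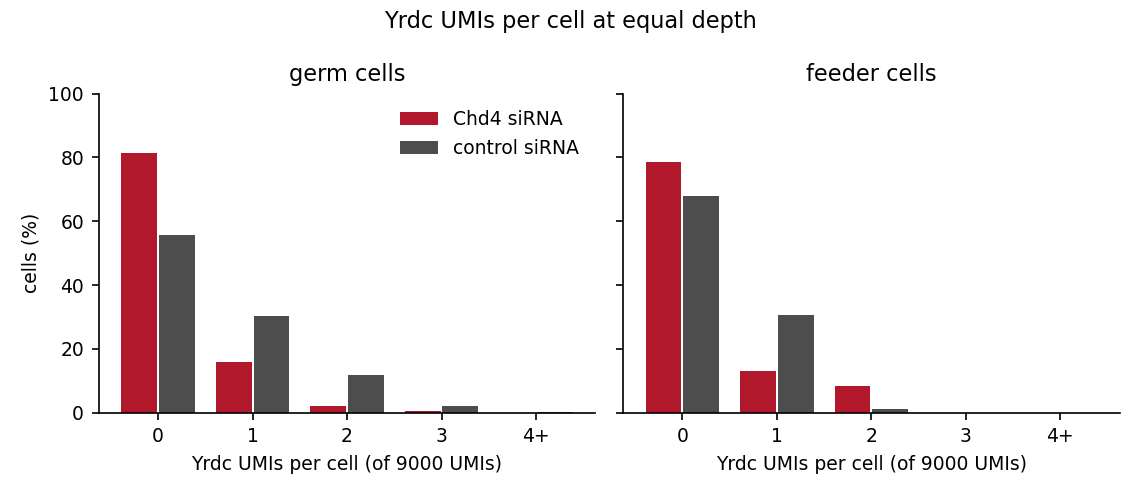
Share of germ cells (left) and feeder cells (right) with 0, 1, 2, 3 or at least 4 Yrdc UMIs after each cell was thinned to 9000 UMIs, under Chd4 siRNA (red) and control siRNA (grey). In germ cells 81.5% had 0 Yrdc UMIs under Chd4 siRNA, against 55.6% under control siRNA, and every higher count was rarer under Chd4 siRNA.

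The difference was present in every subset of germ cells examined. Each subset is cut from the germ cell contrast for which Yrdc was chosen, so the values are a description and their common sign is no separate support. By cell cycle phase, called from S and G2/M gene scores, the Yrdc log2 ratio was −1.51 (−1.88 to −1.15) in G1, −1.49 (−1.83 to −1.15) in S and −1.41 (−1.77 to −1.06) in G2/M. In G1 these values rest on 21.3 CPM under Chd4 siRNA and 60.6 CPM under control siRNA. With germ cells ranked by UMIs per cell and cut into 3 equal groups, it was −1.72 (−2.20 to −1.25) in the shallowest, −1.55 (−1.92 to −1.19) in the middle and −1.29 (−1.57 to −1.02) in the deepest cells, with overlapping intervals.

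The 4 germ cell clusters large enough to use were led by Tox3, by the mitotic gene Esco2, by Tmc3 and by 1700011M02Rik together with Nanos2, which marks the most primitive spermatogonia. Their Yrdc log2 ratios were −1.52 (−1.94 to −1.11), −1.42 (−1.73 to −1.11), −1.54 (−2.01 to −1.10) and −1.35 (−1.87 to −0.85) in that order. Cells were also split by a UMI of genes linked to spermatogonial states. Those with a Nanos2 UMI had a log2 ratio of −1.68 (−2.22 to −1.16), those with a Sall4 UMI −1.66 (−2.06 to −1.28), and those with a Tspan8 UMI −1.38 (−1.78 to −0.997). The smallest difference was in cells with a UMI of Id4, a gene of the stem cell state, at −1.02 (−1.61 to −0.45). There Yrdc had 32.5 CPM under Chd4 siRNA in 73 cells and 65.8 CPM under control siRNA in 73 cells. That interval overlaps the value of −1.53 (−1.75 to −1.32) in cells without an Id4 UMI.

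Cells with more than 15% of their UMIs in rows without a gene name had a log2 ratio of −1.16 (−1.74 to −0.59), and the others −1.48 (−1.69 to −1.27). Over all 20 subsets, which share cells, Yrdc ran between −1.72 and −1.02. Osgep ran between −0.07 and 0.32 in the same subsets. The other members were less level there, and some of their intervals excluded 0, in both directions. The furthest values were −0.61 (−0.98 to −0.25) for Trp53rkb in the cluster led by Tmc3 and 0.66 (0.03 to 1.31) for Osgepl1 in cells with a Nanos2 UMI. The latter rests on 52 UMIs under Chd4 siRNA and 37 under control siRNA. Both are extremes picked from many values and were not tested.

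**Figure D4:**
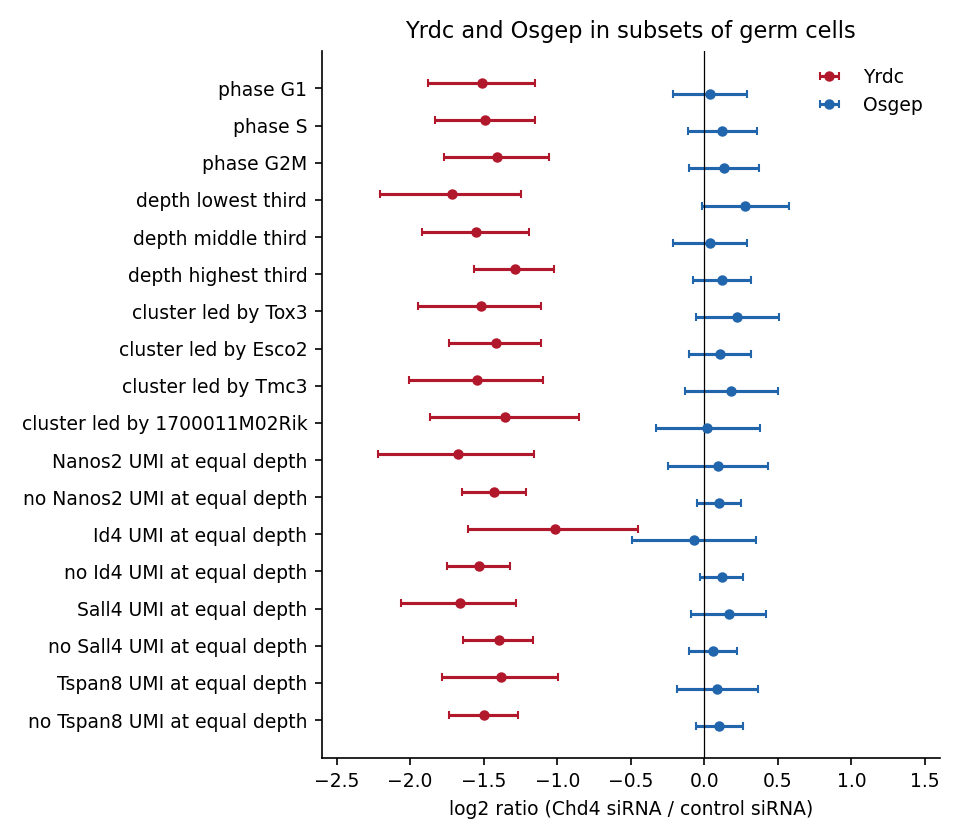
Log2 ratio, Chd4 siRNA over control siRNA, of Yrdc (red) and Osgep (blue) in subsets of germ cells by cell cycle phase, depth, cluster and a UMI of 4 genes of spermatogonial states. Bars are exact 95% intervals for counting error. Every Yrdc interval lies below 0 and none of the Osgep intervals drawn lies wholly on one side of 0. The subsets share cells and are cut from the contrast for which Yrdc was chosen.

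The fourth question was whether Yrdc was lower in cells with less Chd4. Within the Chd4 siRNA library no lower level was seen in such cells. Germ cells with at most 1 Chd4 UMI of 9000 (303 cells) had 26.4 CPM of Yrdc, and those with at least 4 (152 cells) had 16.8 CPM. The log2 ratio of Chd4-low over Chd4-high cells was 0.65 (−0.04 to 1.40), resting on 72 and 23 Yrdc UMIs. Cells with 0 Chd4 UMIs had 22.7 CPM and those with at least 3 had 21.9 CPM, a log2 ratio of 0.05 (−0.67 to 0.75). In the control library the same split, at most 3 against at least 7 Chd4 UMIs, gave 67.3 CPM in Chd4-low and 53.6 CPM in Chd4-high cells, with a log2 ratio of 0.33 (−0.07 to 0.73). Control cells with 0 against at least 3 Chd4 UMIs gave −0.32 (−1.29 to 0.51), with only 12 Yrdc UMIs in 24 cells on the low side. A count of Chd4 UMIs in 1 cell is itself a noisy measure of Chd4, and a difference between cells of truly low and high Chd4 would be narrowed by it.

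Cells of the 2 libraries were then set side by side at the same observed Chd4 count, which need not mean the same Chd4 level. Thinned germ cells averaged 2.31 Chd4 UMIs under Chd4 siRNA and 4.80 under control siRNA, and single counts are noisy. Each group also contains the germ cell contrast for which Yrdc was chosen, so the values are a description. At 0 to 1 Chd4 UMIs Yrdc had 26.4 CPM in 303 cells under Chd4 siRNA and 63.9 CPM in 87 cells under control siRNA, a log2 ratio of −1.27 (−1.81 to −0.72). At 2 to 3 UMIs the log2 ratio was −1.40 (−1.90 to −0.92). At 4 to 5 UMIs it was −2.04 (−2.89 to −1.29), and at 6 or more −2.23 (−3.57 to −1.14), the last resting on 7 Yrdc UMIs in 62 cells under Chd4 siRNA. The level under control siRNA stayed between 58.7 and 81.4 CPM and the level under Chd4 siRNA between 12.5 and 26.4 CPM, so no group of one library reached the other. Across single cells Pearson's r between Yrdc and Chd4 UMIs was −0.05 over 697 cells under Chd4 siRNA and −0.04 over 666 cells under control siRNA. These cells share a library and a depth, and so weak a value in sparse counts is no finding. Osgep had log2 ratios of 0.01, 0.04, −0.04 and 0.49 in the same 4 groups, and each of these intervals includes 0.

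**Figure D5:**
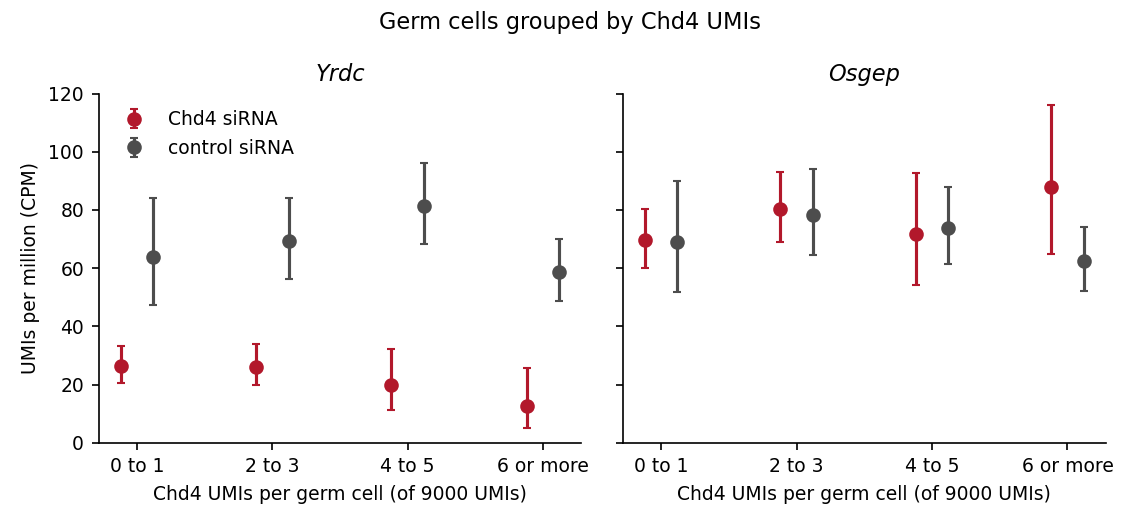
Yrdc (left) and Osgep (right) in CPM in germ cells grouped by their own Chd4 UMIs after thinning to 9000 UMIs, under Chd4 siRNA (red) and control siRNA (grey), with exact Poisson 95% intervals. Yrdc under Chd4 siRNA lies below control siRNA in all 4 groups, at 26.4 against 63.9 CPM in cells with 0 to 1 Chd4 UMIs.

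The genes most like Yrdc were taken as the 5 nearest in the plane of germ and feeder log2 ratios, over 2 libraries and 5613 genes. Gatad1, a zinc finger protein, had 406 germ cell UMIs under Chd4 siRNA and 799 under control siRNA, a log2 ratio of −1.05 (−1.23 to −0.88) in germ cells and −0.40 (−0.54 to −0.27) in feeder cells. Tmem165, a Golgi membrane protein, had −0.99 and 0.02, and Bod1, a regulator of chromosome attachment in mitosis, −1.03 and 0.13. Jund, an AP-1 transcription factor, had −0.98 and 0.01, and Suds3, a subunit of the SIN3 histone deacetylase complex, −0.83 and −0.20. All 5 lie short of Yrdc in germ cells, which the rank of Yrdc as the lowest gene there fixed in advance. Of 9 genes at least 2-fold lower in germ cells and measured in both classes, 3 (Yrdc, Gatad1 and Bod1) had a feeder log2 ratio within 0.5 of 0. Among all 6494 genes past the feeder minimum, 89.8% lay within 0.5 of 0 in feeder cells. Over all 8257 genes 0.133% were at least 2-fold lower in germ cells.

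The place of Yrdc in the genome bears on how its counts can be read. In the GENCODE annotation of GRCm38, the assembly behind mm10, Yrdc lies on the plus strand at chr4:124850679-124855242. 1110065P20Rik runs the other way from the same start region and overlaps it by 518 bases, and the 3′ end of Maneal overlaps the end of Yrdc by 4 bases. The sources used here do not state whether reads were counted by strand, so it is not known whether reads in the overlaps were told apart. 1110065P20Rik had 618 germ cell UMIs under Chd4 siRNA and 682 under control siRNA, a log2 ratio of −0.22 (−0.38 to −0.06), and in feeder cells −0.25 (−0.47 to −0.03). Its difference is much smaller than that of Yrdc and about the same in both classes. Maneal had 1 and 2 germ cell UMIs. Osgep has a divergent neighbour too, Apex1, a DNA repair endonuclease, 74 bases away. Apex1 had 3651 and 3154 germ cell UMIs and a log2 ratio of 0.13 (0.06 to 0.20), the same as Osgep, and in feeder cells −0.35 (−0.65 to −0.05), beside −0.39 for Osgep.

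Both shared start regions hold a match to CCGGAAG, the core of the binding motif of ETS factors, in the 250 bases before the RefSeq start (GRCm38.p6). They are shown because the members of the pair differ: at the Osgep start both genes had like ratios, while at the Yrdc start Yrdc and its neighbour did not. Capitals mark CCGGAAG or its reverse complement in the first 2 lines, and CACGTG, the E box, in the last line; each sequence is written 5′ to 3′ on the strand of the named gene. The Yrdc stretch is chr4:124850714-124850743 (plus strand), and the Osgep stretches are chr14:50925108-50925137 and chr14:50924949-50924975 (minus strand). GENCODE starts Yrdc further upstream than RefSeq does, so the Yrdc stretch lies inside its first exon there. The first Osgep stretch lies in an intron of Apex1 and the E box stretch spans the start of Apex1.
Yrdc ETS: agcctcgcgggCCGGAAGttgcgtccgtgc
Osgep ETS: gggctgcggttCTTCCGGcctggcccgcca
Osgep E box: CACGTGggcgattggtgtggtCACGTG

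On either strand, CCGGAAG is found in 7.05% of 27025 promoters of the same length and CACGTG in 6.05%. These promoters were not matched for base content. The Osgep window holds 3 CACGTG matches and the Yrdc window 0. The Yrdc window also holds 3 matches to GGGCGG, the Sp1 core, found in 32.9% of promoters. It is rich in G and C, with 76% of its bases and 35 CpG dinucleotides, against medians of 52% and 6 over all promoters. Among the other 5 members the windows ranged from 47.6% (Osgepl1) to 67.2% (Lage3). The neighbour 1110065P20Rik, whose window lies in the same start region, had 76.4%. Of the 6 genes only Yrdc and Osgep had a CCGGAAG match. Among the neighbours, the window of 1110065P20Rik held 2 such matches and that of Apex1 0.

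The Yrdc transcript itself is not unusual among those measured. Its longest transcript is 1634 bases long with 55.3% G and C, against a median length of 2998.5 bases, and 78.2% of the 8252 genes with a known transcript had lower G and C content. The 378 genes in the same of 5 bins of length and of base content, Yrdc included, had a median log2 ratio of 0.08, and 2 of them, Yrdc among them, were at least 1.5-fold lower. Set against that median, the Yrdc log2 ratio was −1.52.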

How the data were processed

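Single-cell RNA libraries were captured with 10x Genomics v2 chemistry, per the labels' protocols. Values as deposited are raw counts of UMIs for every gene in every cell, per the file headers. The submitters' processing notes list mm10, Seurat and Cell Ranger 2.1.0 without roles. The sources used here do not say how cells were called.

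The members and gene lists were chosen with earlier results of these data known. The gene list names 26893 of 27998 matrix rows; the remaining rows held 12.6% and 12.1% of UMIs (Chd4 siRNA and control siRNA) and stayed out of totals. Each matrix ends inside its last cell, which was left out, and 2 cells under 1000 UMIs were removed. UMIs were summed per library and class and divided by the class total (CPM). Ratios, Chd4 siRNA over control siRNA, have exact conditional binomial (Clopper-Pearson) 95% intervals, sums exact Poisson intervals, shares Clopper-Pearson intervals and differences of shares Newcombe intervals. Differences of log2 ratios have normal intervals from the 4 counts. With 1 library per group no p-value was computed. Genes needed 200 UMIs in germ or 100 in feeder cells. Cells were thinned to 9000 UMIs without replacement; 63 and 62 germ cells and 5 and 4 feeder cells were shallower. Clusters (Leiden, leidenalg 0.10.2), phases and doublets (Scrublet; 5 and 15 cells, kept) came from scanpy 1.11.5. TMM (edgeR 4.0.16) and DESeq2 1.42.0 factors were used for scaling only. Named genes were the 6 members and Gon7, Chd4, the 3 lowest and highest of each list, the 5 nearest to Yrdc and genomic neighbours. The cell subsets by Nanos2, Id4, Sall4 and Tspan8 and by unnamed rows, and the step without the highest cell, were chosen after the values were seen. The log2 ratios with their intervals and the thinning were tested on simulated counts, and the other steps were not. Those counts were drawn with counting error alone, so spread between cells beyond it was not part of the test.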

Additional observations from a re-analysis of the deposited data

Results flagged for a closer look

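Among the 6 members and Trp53rka, 4 genes had log2 ratios, Chd4 siRNA over control siRNA, of opposite sign in germ and feeder cells, and with 1 library per group this difference between classes was not tested. Osgep had 0.13 in germ and −0.39 in feeder cells, a germ minus feeder difference of 0.52 (−0.03 to 1.07). Lage3 had 0.08 and −0.28, a difference of 0.36 (0.12 to 0.60). Trp53rka had 0.21 and −0.15, a difference of 0.36 (−0.31 to 1.03). Trp53rkb had −0.14 and 0.60, a difference of −0.74 (−1.26 to −0.22), and its feeder value falls to 0.09 without the highest cell of each library.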

How the results depend on the processing

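Of 54 alternatives to the values above, 51 stayed within the counting interval of the value reported or left a count of genes equal. The median of the other 5 members has no interval of its own, so that of Lage3, the gene at this median, stood in for it. Under 12 alternatives (TMM and DESeq2 scaling, mean per-cell CPM, a stricter cell split, Leiden clusters, at least 5000 UMIs, doublets removed, thinning, genes of like length and base content, equal phase shares, and, added after the data were seen, cells of mixed markers removed and at most 15% unnamed UMIs) the Yrdc log2 ratio in germ cells ran between −1.52 and −1.44. In feeder cells it ran between −0.16 and −0.05 over 10 of these, and the germ minus feeder difference between −1.41 and −1.30. The median of the other 5 members ran between 0.03 and 0.12 over 11, also with the 2 Trp53rk copies summed. The Chd4-low over Chd4-high log2 ratio of Yrdc ran between 0.05 and 0.68 over 5 settings. Every interval computed for it includes 0 and the settings share cells, so their common sign is no finding. Other minimum counts and scalings left the number of tRNA modification enzymes at least 1.5-fold lower at 0.

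The difference in the share of germ cells with a Yrdc UMI moved with depth, to −31.9 points without thinning, −15.3 points at 5000 UMIs and −34.0 points at 12000 UMIs. A share rises with the UMIs drawn per cell, so these values are not comparable with each other. No paired analysis was possible because each group is 1 library of pooled replicates. In feeder cells Yrdc rests on 100 and 96 UMIs from 89 and 79 cells, which limits the precision of the ratio there. The intervals take no account of spread between cells beyond counting, nor of spread between replicates.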
